A study of Mus musculus with 37 samples.

Results

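Pgr encodes the progesterone receptor, a transcription factor of the nuclear receptor family that binds progesterone. It was matched by its symbol to the Ensembl identifier ENSMUSG00000031870 and was 1 of 52636 genes with deposited counts. The gene lies on chromosome 9 from 8899833 to 8968611 on the plus strand (GENCODE M21, GRCm38), and 0 annotated genes overlapped it. The study sequenced RNA of mature luminal cells, which FACS had isolated from mouse mammary glands, in 12 groups made of 3 Esr1 genotypes and 4 treatments. The genotypes were WT, D542G and Y541S, named for substitutions in estrogen receptor alpha, the product of Esr1. All mice, placebo groups included, were raised to 8 weeks of age, had their ovaries removed and carried pellets for 8 days. The pellets held placebo, estradiol (E2), progesterone (P4), or, in the groups labelled E2+P4, both hormones. Each group had 3 libraries, except WT P4 with 4. The labels give neither the zygosity nor the origin of the mutant alleles, and no label says whether each library came from a separate animal. P-values therefore measure the spread between these libraries.

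In the mammary epithelium, the progesterone receptor is made by a subset of luminal cells, the hormone-sensing cells, most of which also make estrogen receptor alpha. Pgr is a textbook target of estrogen receptor alpha, and progesterone lowers the level of its own receptor in many tissues. Hormone-sensing cells that bind progesterone release paracrine factors such as RANKL, the product of Tnfsf11, which act on neighbouring cells that lack the receptor. The gene gives rise to a long and a short receptor form, PR-B and PR-A, from different start sites. Counts per gene do not separate these forms.

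The sequence before the start of the gene is shown because it borders the site where transcription of Pgr starts. The 250 bases before the start, chr9:8899583-8899832 on the plus strand, were taken from the RefSeq promoter table of GRCm38.p6, with capitals marking matches to the motifs searched.
Pgr promoter: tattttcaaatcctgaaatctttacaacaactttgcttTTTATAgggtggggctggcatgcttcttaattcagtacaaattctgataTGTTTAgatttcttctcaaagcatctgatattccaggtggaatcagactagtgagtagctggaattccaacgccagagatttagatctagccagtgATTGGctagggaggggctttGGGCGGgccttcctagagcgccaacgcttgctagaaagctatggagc
A GGGCGG box, the core of an Sp1 site, stood 47 to 42 bases before the start, and 32.7% of 32851 promoters of the same length held 1 on either strand. A CCAAT box lay on the reverse strand, read as ATTGG, 67 to 63 bases before the start (33.8% of promoters). The forkhead core TGTTTA, a motif of the family of Foxa1, lay 163 to 158 bases before the start (12% of promoters). TATAAA was found on the reverse strand, read as TTTATA, 212 to 207 bases before the start (12.4% of promoters). The 4 matches did not overlap.
The full estrogen response element, GGTCA and TGACC set 3 bases apart and present in 0.1% of promoters, was not in this window on either strand. AGGTCA (14.0%), the progesterone receptor motif AGAACA (16.1%), the AP-1 motif TGANTCA (6.7%) and the GATA core AGATAA (10%) were not in it either. A match is a run of letters only, and elements further away were not searched.

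Libraries held 25694701 to 52244504 counts (median 41260533), of which 1646 to 22046 fell on Pgr. Of the 37 libraries, 3 had sample identifiers of a later number series (Y541S placebo 5, WT P4 4 and WT P4 5) and at most 31327298 counts, against at least 32671761 in the other 34. Levels below are CPM, counts scaled to the size of each library with trimmed-mean normalization, and are given as mean ± SD. Differences are log2 fold changes ± SE from edgeR's quasi-likelihood test over 18426 genes, with a call where the Benjamini-Hochberg adjusted p was below 0.05. Esr1, the mutated gene, was at 688 ± 129.7 CPM in WT placebo, 171 ± 25.9 in D542G placebo and 82.1 ± 25.1 in Y541S placebo (n = 3 each). Counts per gene do not show which Esr1 allele was read. In these bulk samples, fewer cells with Pgr and less Pgr RNA per cell cannot be told apart.

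Under placebo, Pgr stood at 294 CPM, 108 CPM and 150.2 CPM in the libraries WT 1, 2 and 3. D542G placebo libraries held 217, 269.7 and 293 CPM, and Y541S placebo libraries 332, 288 and 116 CPM for numbers 2, 3 and 5. The libraries of all 3 genotypes overlapped, and those of WT and Y541S spread over a range wider than the gap between the groups. Pgr in D542G differed from WT by 0.50 ± 0.36 log2 (95% interval -0.25 to 1.24, adjusted p = 0.676), in a comparison that called 2.02% of genes. Y541S differed from WT by 0.41 ± 0.36 log2 (interval -0.33 to 1.16, adjusted p = 0.514, 13.4% of genes called). Neither placebo difference passed the test.

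Ordered by mean log2 CPM, Pgr was highest in D542G E2 (449.5 ± 71.5 CPM). Next came D542G placebo (260.1 ± 39.0), WT E2+P4 (236 ± 88.2) and Y541S placebo (245 ± 113.8). In the middle lay Y541S E2 (184 ± 25.7), WT placebo (184 ± 97.7), D542G E2+P4 (142 ± 39.0) and Y541S E2+P4 (128 ± 17.8). The 4 lowest groups were Y541S P4 (109.8 ± 6.71), WT P4 (90.9 ± 26.5, n = 4), D542G P4 (89.35 ± 35.1) and WT E2 (67.0 ± 23.8). All 3 groups given P4 alone were thus among the lowest 4, and E2 gave both the highest and the lowest group, depending on genotype. Of the 11 neighbouring pairs in this order, only D542G E2 and D542G placebo differed beyond the spread of their libraries. With another normalization (RLE), WT E2+P4 and Y541S placebo traded places and Y541S E2+P4 also stood apart from Y541S P4.

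**Figure D1:**
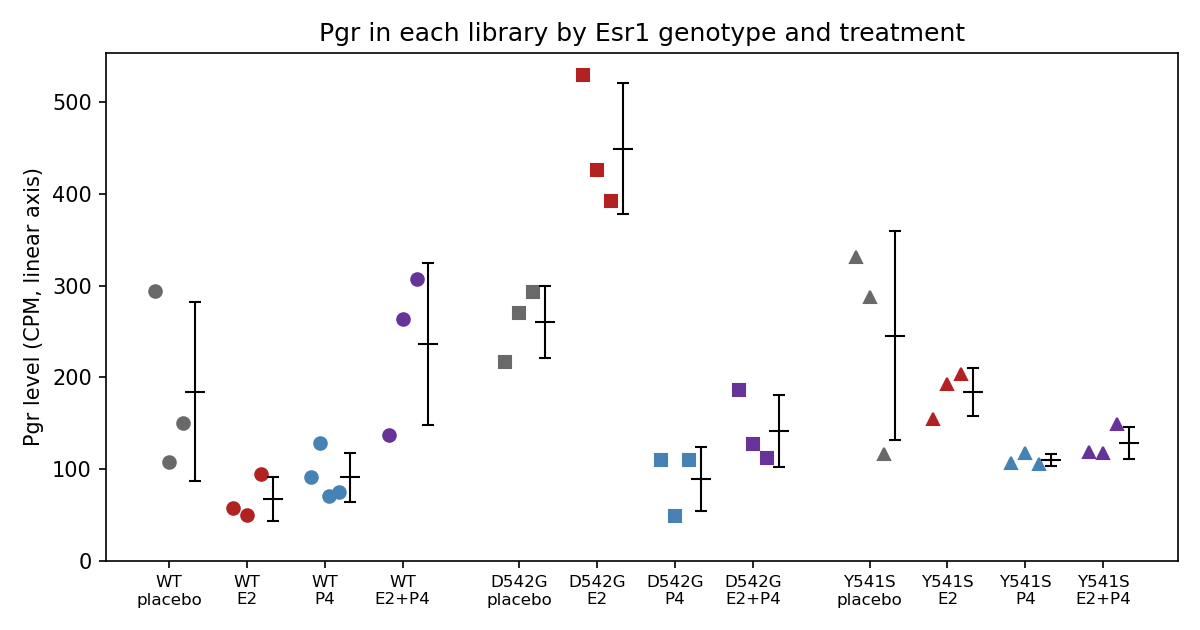
Pgr level in CPM (linear vertical axis) in each of the 37 libraries, by Esr1 genotype and treatment on the horizontal axis. Points are libraries, and the black dash and bar beside them are the mean ± SD of the group. D542G E2 stands highest at 392 to 529.6 CPM and WT E2 lowest at 49.8 to 94.1 CPM.

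In WT cells Pgr was lower under E2 than under placebo. The 3 WT E2 libraries held 57.1, 49.8 and 94.1 CPM of Pgr, all below the lowest WT placebo library at 108 CPM. Pgr fell by 1.46 ± 0.37 log2, which is 2.75-fold (adjusted p = 0.00326), in a comparison that called 31.5% of genes. The call was lost without WT placebo 1, the library with the highest level of its group (fall of 0.95 log2, adjusted p = 0.0645).

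In D542G cells the E2 libraries stood above the placebo libraries. Pgr was at 529.6, 427 and 392 CPM under E2, and the highest placebo library held 293 CPM, so the groups did not overlap. The difference of 0.79 ± 0.37 log2 (interval 0.04 to 1.54) had an adjusted p of 0.145 and did not pass the test, and 15.7% of genes were called. In Y541S cells the E2 libraries held 155, 193 and 204 CPM and lay within the range of the placebo libraries. Here Pgr differed by -0.42 ± 0.36 log2 (interval -1.16 to 0.33, adjusted p = 0.613, 4.65% of genes called).

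The E2 response itself differed between D542G and WT cells by 2.25 ± 0.52 log2 (adjusted p = 0.00542), with 9.23% of genes called. This difference was called in all 18 alternative analyses. For Y541S against WT the difference of 1.04 ± 0.52 log2 did not pass (interval -0.01 to 2.10, adjusted p = 0.235, 8.02% of genes called). Set directly against WT E2, Pgr was 6.71-fold higher in D542G E2 (2.75 ± 0.39 log2, adjusted p = 4.93e-06, 29.1% of genes called). It was 2.75-fold higher in Y541S E2 (1.46 ± 0.37 log2, adjusted p = 0.00959, 12.3% of genes called). In both comparisons every mutant library exceeded every WT library. The Y541S call was lost without WT E2 2 (adjusted p = 0.0697).

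Mean Pgr was lower under P4 alone than under placebo in each genotype, and the difference passed the test in both mutants. In D542G the P4 libraries held 109, 48.8 and 109.9 CPM, all below the lowest placebo library at 217 CPM. Pgr fell by 1.54 ± 0.37 log2, or 2.91-fold (adjusted p = 0.00464, 18.4% of genes called). In Y541S the P4 libraries lay closely together at 106.5, 117.5 and 105.3 CPM. They were below Y541S placebo 2 and 3 but around the level of Y541S placebo 5. Pgr fell by 1.16 ± 0.37 log2, or 2.24-fold (adjusted p = 0.0388, 11.3% of genes called). This call was lost in 5 of 6 analyses that left out 1 library of the 2 groups, with adjusted p up to 0.186, and was kept without Y541S placebo 5.

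In WT cells the P4 libraries 2, 3, 4 and 5 held 90.9, 128, 69.96 and 74.4 CPM of Pgr. The highest of them, WT P4 3, overlapped the WT placebo range. Pgr differed by -1.02 ± 0.34 log2 (interval -1.71 to -0.33, adjusted p = 0.137), and 1.43% of genes were called. DESeq2 called it on the same counts (adjusted p = 0.0491). The P4 response was not shown to differ between genotypes, at -0.52 log2 for D542G against WT (interval -1.54 to 0.50, adjusted p = 0.636, 3.35% of genes called) and -0.14 log2 for Y541S against WT (interval -1.16 to 0.88, adjusted p = 0.92, 7.33% of genes called).

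With both hormones, Pgr in WT cells was at 137, 264 and 307 CPM, above every WT library of E2 alone and of P4 alone. Against E2 alone it rose 3.52-fold (1.82 ± 0.37 log2, adjusted p = 0.000858, 18.5% of genes called). Against P4 alone it rose 2.60-fold (1.38 ± 0.34 log2, adjusted p = 0.00336, 23.2% of genes called). Without the libraries of the later number series, which leaves 2 libraries in WT P4, the second difference was 1.11 log2 with an adjusted p of 0.0512. Against placebo the WT E2+P4 libraries overlapped the control range and Pgr differed by 0.36 ± 0.36 log2 (interval -0.39 to 1.10, adjusted p = 0.524, 23.4% of genes called).

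In D542G cells the same addition of P4 to E2 went the other way. The D542G E2+P4 libraries held 186, 127 and 111.9 CPM of Pgr, all below the lowest D542G E2 library at 392 CPM. Pgr fell by 1.67 ± 0.37 log2, or 3.18-fold (adjusted p = 0.00155, 20.9% of genes called). It stood 0.66 ± 0.37 log2 above P4 alone (interval -0.08 to 1.41, adjusted p = 0.329, 5.17% of genes called) and 0.88 ± 0.37 log2 below placebo (interval of the difference -1.63 to -0.13, adjusted p = 0.0782, 25.4% of genes called), neither of which passed.

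In Y541S cells E2+P4 gave 119, 117 and 148.5 CPM, all below the lowest Y541S E2 library at 155 CPM. The differences were -0.52 ± 0.36 log2 from E2 (interval -1.27 to 0.22, adjusted p = 0.43, 10.4% of genes called), 0.22 ± 0.36 from P4 (interval -0.52 to 0.97, adjusted p = 0.908, 1.68% of genes called) and -0.94 ± 0.37 from placebo (interval -1.69 to -0.19, adjusted p = 0.0736, 18.5% of genes called). None passed, and the last was called without Y541S placebo 5 (-1.27 log2, adjusted p = 0.0131). A test of whether the change made by adding P4 to E2 differed between genotypes was chosen after these values were seen. It gave -3.48 ± 0.53 log2 for D542G against WT (adjusted p = 3.09e-05, 21.5% of genes called) and -2.34 ± 0.52 log2 for Y541S against WT (adjusted p = 0.00456, 9.07% of genes called).

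**Figure D2:**
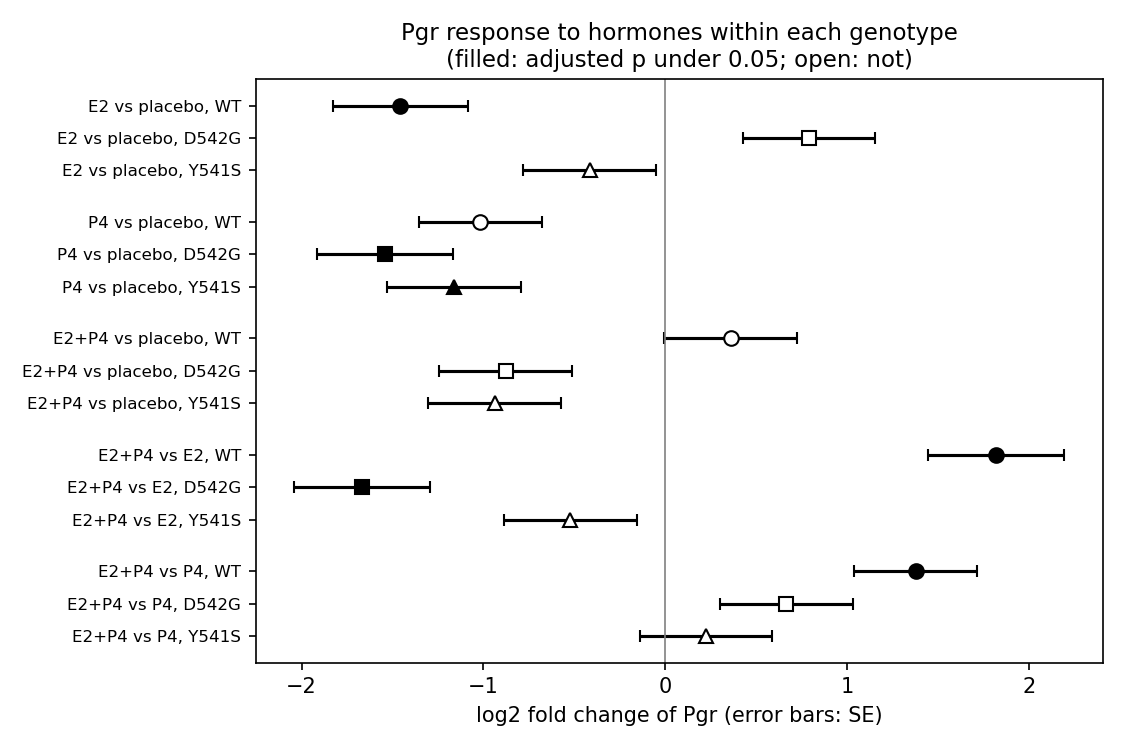
Log2 fold change of Pgr (horizontal axis) for 5 comparisons within each genotype (vertical axis), with bars for the SE. Circles stand for WT, squares for D542G and triangles for Y541S, and filled symbols passed the test at an adjusted p under 0.05. For E2+P4 against E2, WT lies at 1.82 and D542G at -1.67.

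For each genotype, the response to both hormones was then compared with what the 2 separate responses add up to, all on the log2 scale and against placebo. In WT cells E2 and P4 alone gave -1.46 and -1.02, which sum to -2.48, whereas E2+P4 gave 0.36. Pgr in WT E2+P4 thus stood 2.84 ± 0.50 log2 above the sum (adjusted p = 0.000397, 11.4% of genes called), and this was called in all 19 alternative analyses. In D542G cells the sum was -0.75 and the combined response -0.88, a difference of -0.13 ± 0.51 (interval -1.18 to 0.93, adjusted p = 0.951, 3.89% of genes called). In Y541S cells the sum was -1.58 and the combined response -0.94, a difference of 0.64 ± 0.51 (interval -0.41 to 1.69, adjusted p = 0.742, 0.564% of genes called).

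The departure from the sum differed between D542G and WT by -2.96 ± 0.72 log2 (adjusted p = 0.0326, 1.38% of genes called). That call was lost in 12 of 25 analyses that left out 1 library, with adjusted p of 0.0539 to 0.0892. The libraries were WT placebo 1, WT E2 2, WT E2+P4 2 and 3, WT P4 5, D542G placebo 1 and 2, D542G E2 1, D542G P4 1 and 3, and D542G E2+P4 2 and 3. For Y541S against WT the difference was -2.20 ± 0.72 log2 (interval -3.66 to -0.73, adjusted p = 0.0923, 3.17% of genes called). The E2+P4 response against placebo differed from WT by -1.24 ± 0.52 log2 in D542G (adjusted p = 0.189, 4.3% of genes called) and by -1.30 ± 0.52 in Y541S (adjusted p = 0.12, 8.68% of genes called), and the second was called without WT placebo 1 (adjusted p = 0.0317) or Y541S placebo 5 (adjusted p = 0.0383). At the level of E2+P4 itself, Pgr was not called different from WT in D542G (-0.74 ± 0.37 log2, adjusted p = 0.249, 6.69% of genes called) or Y541S (-0.88 ± 0.37 log2, adjusted p = 0.107, 14.5% of genes called). Without WT E2+P4 1, the lowest of its group, the Y541S difference was -1.15 log2 with an adjusted p of 0.0365. Under P4 alone the 3 genotypes lay close together, with -0.02 log2 for D542G (interval -0.72 to 0.67, adjusted p = 0.977, 13% of genes called) and 0.27 log2 for Y541S (interval -0.42 to 0.97, adjusted p = 0.597, 27.6% of genes called), both against WT P4.

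**Figure D3:**
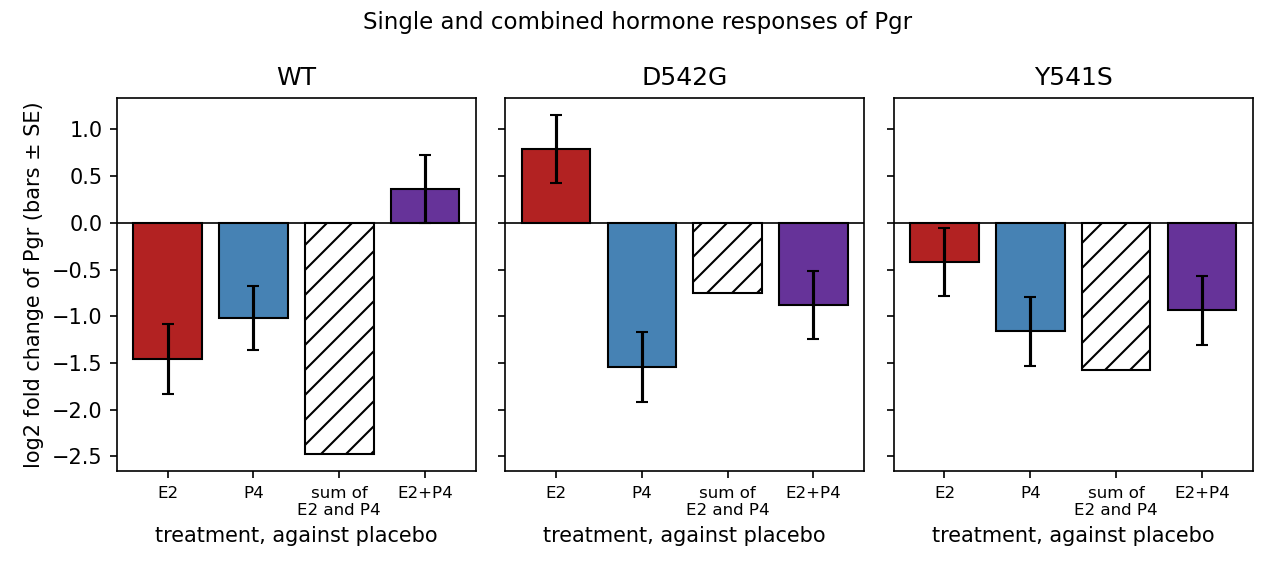
Log2 fold change of Pgr against placebo of the same genotype (vertical axis) for E2, P4, the sum of these 2 values (hatched, no error bar) and E2+P4, in 3 panels for WT, D542G and Y541S. Bars on the measured responses are ± SE. In WT the sum is -2.48 and the measured combined response 0.36, whereas in D542G they are -0.75 and -0.88.

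Markers of hormone-sensing luminal cells, the cells that make the receptor, moved with several of these differences. The list held 7 genes (Esr1, Prlr, Cited1, Foxa1, Prom1, Tbx3 and Ly6a), and their summed level was 5010 to 7825 CPM in WT placebo and 555 to 1172 CPM in WT E2. All 7 fell in WT E2, where 15.9% of all genes fell and 15.6% rose, with a median of -3.54 log2 against 0.03 over all genes tested. In the same comparison 9 of 13 markers of progenitor and alveolar cells rose and none fell, and their summed level went from 4029 to 4791 CPM up to 15210 to 48840 CPM. Wap, a milk protein gene of that list, was at 0 in all WT placebo libraries. The part of these markers in the fall of Pgr was not tested. Luminal keratins, which mark the sorted lineage, were at 13200 to 17570 CPM in WT placebo and 13590 to 23310 CPM in WT E2.

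In WT E2+P4 the hormone-sensing markers summed to 1539 to 3632 CPM, and 5 of 7 rose against WT E2 while none fell (10.2% of all genes rose). There 10 of 13 progenitor and alveolar markers fell (8.28% of all genes fell). Pgr overlapped its placebo range in those libraries, whereas 6 of the 7 markers were lower than in placebo (11.5% of all genes were). In WT P4 the markers summed to 5907 to 6836 CPM and edgeR called 0 of 7 in either direction (1 at an unadjusted p under 0.05). In D542G E2 they summed to 4539 to 5324 CPM against 6219 to 7069 CPM in D542G placebo, with 3 of 7 lower and none higher (7.34% of all genes fell), while Pgr was higher in every E2 library. Among these 3, the calls of Esr1 (adjusted p = 0.0478) and Prlr (0.0322) were lost in 6 and 5 of 6 analyses that left out 1 library. The Pgr difference there was itself not called (adjusted p = 0.145). Luminal keratins moved with Pgr in that comparison: 3 of 4 rose (8.36% of all genes rose), with a median of 0.77 log2 and sums of 33180 to 36040 CPM against 18070 to 21990 CPM. In D542G P4 the hormone-sensing markers summed to 1597 to 2517 CPM, with 3 of 7 lower (8.88% of all genes fell), and 8 of 13 progenitor and alveolar markers rose (9.49% of all genes rose). In the same comparison 4 of 8 endothelial markers rose, with sums of 279 to 348 CPM against 145 to 225 CPM in placebo. Of 8 fibroblast markers 4 rose and 1 fell there, although their sums were 49.8 to 371 CPM against 251 to 920.6 CPM. Endothelial sums were also high in WT E2+P4, at 307 to 500 CPM against 55.9 to 77.35 CPM in WT E2. The mean log2 CPM of these endothelial markers overlapped between the 2 groups (1.89 to 4.08 and 2.26 to 2.79). Their part in the rise of Pgr in WT E2+P4 was not tested. In Y541S P4 the hormone-sensing markers summed to 932.5 to 1302 CPM against 1287 to 5146 CPM in placebo, with 3 of 7 lower and none higher (6.13% of all genes fell). The part of these markers in the fall of Pgr under P4 was not tested.

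The direct contrasts of Pgr between groups given E2 also went with marker changes. In D542G E2 against WT E2, all 7 hormone-sensing markers (median 2.05 log2) and all 4 luminal keratins were higher (15.4% of all genes were), and 9 of 13 progenitor and alveolar markers were lower (13.8% of all genes were). For the difference in E2 response between D542G and WT, 6 of 7 hormone-sensing markers were called higher (4.52% of all genes) and 8 of 13 progenitor and alveolar markers lower (4.71%). In Y541S E2 against WT E2, 3 of 7 hormone-sensing markers were higher and none lower, and 2 of 4 luminal keratins were higher and 1 lower (12.3% of all genes were called). In D542G E2+P4 against D542G E2, where Pgr fell, all 4 luminal keratins fell (median -1.51 log2) and 3 of 7 hormone-sensing markers fell (10.8% of all genes fell), while 5 of 13 progenitor and alveolar markers rose (10% of all genes rose). The hormone-sensing sums there were 942.5 to 1687 CPM against 4539 to 5324 CPM. For the change on adding P4 to E2 in D542G against WT, 6 of 7 hormone-sensing markers and all 4 luminal keratins were called lower and 8 of 13 progenitor and alveolar markers higher (21.5% of all genes were called). For the same change in Y541S against WT, all 7 hormone-sensing markers and 1 of 4 luminal keratins were called lower (9.07% of all genes were called). There 0 of 13 progenitor and alveolar markers were called in either direction (2 at an unadjusted p under 0.05). For the departure of Pgr from the sum in WT, the mean log2 CPM of the hormone-sensing markers is given beside it. It was 9.37 to 9.98 under placebo, 5.64 to 6.85 with E2, 9.50 to 9.71 with P4 and 7.52 to 8.76 with E2+P4. P4 alone thus overlapped placebo, while every E2+P4 library lay above every E2 library. The part of these markers in the Pgr differences, the departure from the sum included, was not tested.

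Within groups, single libraries stood apart in these markers. Y541S placebo 5, with the lowest Pgr of its group, held 1287 CPM of hormone-sensing markers, the lowest of that group, and 9310 CPM of progenitor and alveolar markers, the highest. D542G P4 2, with the lowest Pgr of all libraries, also had the lowest hormone-sensing sum of its group (1597 CPM) and the highest progenitor and alveolar sum (15480 CPM). WT placebo 2, with the lowest Pgr of WT placebo, held 952 CPM of basal markers, the highest of its group. WT P4 2, whose Pgr lay within the range of its group, held 865 CPM of basal markers against 104 to 107 CPM in the other WT P4 libraries. Fibroblast markers summed to 4051 and 4102 CPM in Y541S placebo 2 and 3, the 2 libraries of that group with high Pgr, against at most 920.6 CPM in every other library, and their part in the Y541S comparisons was not tested. In WT E2, where 15.6% of all genes rose, 6 of 8 leukocyte markers rose (median 4.08 log2). Their sums were 30.9 to 135 CPM against 3.12 to 5.18 CPM in WT placebo, and their part in the fall of Pgr was not tested. Adipocyte markers summed to at most 6.88 CPM in any library. Without D542G P4 2 the fall of Pgr under P4 in D542G was 1.25 log2 and was still called (adjusted p = 0.047).

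Estrogen receptor alpha and the factors that act with it come upstream of Pgr. In WT E2, 5 of 8 genes of this list fell and 2 rose (median -2.27 log2, against 0.03 over all genes tested, of which 15.9% fell and 15.6% rose). Esr1, Foxa1, Cited1 and Tbx3 are also hormone-sensing markers counted above, so the counts of these lists share genes. Esr1 fell by 4.82 ± 0.39 log2 (adjusted p = 1.73e-09), from 579 to 832 CPM in placebo libraries to 9.74 to 39.4 CPM under E2. Foxa1, a forkhead factor that opens chromatin for the estrogen receptor, fell by 3.53 ± 0.47 log2 (adjusted p = 1.81e-06). Cited1, a coactivator of the estrogen receptor, fell by 5.16 ± 0.55 log2 (adjusted p = 8.56e-08). Greb1, an estrogen-induced cofactor of the receptor, rose by 2.68 ± 0.54 log2 (adjusted p = 0.00033) while Pgr fell. Myc, Rerg and Greb1 were among 6 of 17 tested estrogen receptor targets other than Pgr that rose in WT E2, and Rara was 1 of 2 that fell (median 0.56 log2). Of all genes 15.6% rose and 15.9% fell there.

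In D542G E2, where 8.36% of all genes rose, 5 of 17 estrogen receptor targets rose and none fell (median 0.39 log2, against 0.01 over all genes tested). Greb1 rose by 3.03 ± 0.55 log2 (adjusted p = 0.000281). Esr1 fell by 0.97 ± 0.33 log2 (adjusted p = 0.0478), a call lost when any 1 of the 6 libraries was left out (adjusted p of 0.0575 to 0.171), and Foxa1 differed by -0.74 ± 0.42 log2 (adjusted p = 0.247). In Y541S E2, where 4.65% of all genes were called, 1 of 17 targets rose and 1 fell, and Cited1 rose by 2.61 ± 0.49 log2 (adjusted p = 0.00198). There Greb1 differed by -0.27 ± 0.49 log2 (adjusted p = 0.835) and Esr1 by -0.30 ± 0.33 log2 (adjusted p = 0.707). Greb1 was already at 17.5 to 44.9 CPM in Y541S placebo, against 0.868 to 2.22 CPM in WT placebo and 0.613 to 1.30 CPM in D542G placebo. Pgr overlapped between the placebo groups, as given above. Against WT E2, Esr1 was 1.85 ± 0.34 log2 higher in D542G E2 (adjusted p = 0.000151) and 1.46 ± 0.34 log2 higher in Y541S E2 (adjusted p = 0.00486).

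Over all 37 libraries Pgr and Esr1 were weakly related, with r = 0.189 for log2 CPM. After the mean of each group was subtracted, r was 0.652. Prlr, the prolactin receptor and another hormone-sensing gene, had r = 0.386 over all libraries and 0.77 within groups. These correlations describe libraries that share treatment, genotype and cell sort. Groups with little Esr1, such as all Y541S groups at 55.1 to 104.7 CPM, covered Pgr levels from 105 to 332 CPM.

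**Figure D4:**
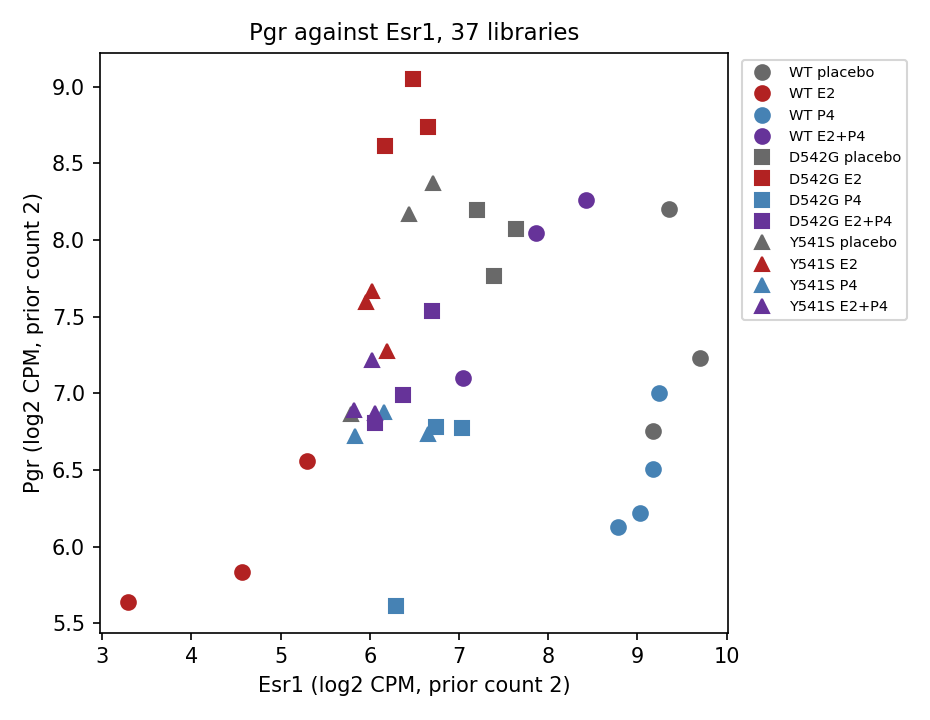
Pgr (vertical axis) against Esr1 (horizontal axis), both in log2 CPM with a prior count of 2, for the 37 libraries. Colours mark treatment and symbols genotype. WT E2 libraries lie at the lower left, with r = 0.189 over all libraries. D542G E2 libraries have the highest Pgr at 72.1 to 100.9 CPM of Esr1, within the range of the Y541S groups (55.1 to 104.7 CPM).

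The receptor works with chaperones that hold it ready for ligand, with coregulators that it recruits, and beside other receptors for progesterone and related steroids. Of 12 chaperones and cochaperones, 3 rose and 1 fell in WT E2 (median 0.22 log2) beside 15.6% and 15.9% of all genes, among them Hspa8 (0.86 ± 0.16 log2, adjusted p = 0.00017) and Dnajb1 (-1.24 ± 0.17 log2, adjusted p = 4.24e-06). Under P4, 4 of 12 rose and 2 fell in D542G (9.49% of all genes rose and 8.88% fell) and 5 rose and 0 fell in Y541S (5.14% of all genes rose), in both cases including Fkbp5, which is also a target of the receptor. Of 10 coregulators, 7 fell in WT E2 and 0 rose (median -0.72 log2, against 0.03 over all genes tested, of which 15.9% fell), led by the methyltransferase Carm1 (-1.31 ± 0.19 log2, adjusted p = 4.53e-06) and the chromatin remodeller Smarca4 (-1.06 ± 0.21 log2, adjusted p = 0.000216). The acetyltransferase Ep300 (-0.98 ± 0.21 log2, adjusted p = 0.00055) and the corepressor Ncor1 (-0.85 ± 0.18 log2, adjusted p = 0.000616) were also among them.

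Among 6 tested genes for membrane progestin receptors, Paqr6 rose (2.44 ± 0.41 log2, adjusted p = 4.01e-05) and Paqr5 fell (-3.26 ± 0.66 log2, adjusted p = 0.000386) in WT E2. Of all genes, 31.5% were called in WT E2 and 18.4% in D542G P4. In D542G P4, where Pgr fell, Pgrmc1 (-0.70 ± 0.14 log2, adjusted p = 0.000766) and Pgrmc2 (-0.65 ± 0.16 log2, adjusted p = 0.00479) fell and Paqr6 rose. The Pgrmc2 call was lost without D542G P4 2 (adjusted p = 0.0569). Of the other steroid receptors, the mineralocorticoid receptor gene Nr3c2 fell in WT E2 by 2.88 ± 0.43 log2 (adjusted p = 7.39e-06). The glucocorticoid receptor gene Nr3c1 rose there by 0.78 ± 0.27 log2 (adjusted p = 0.0278), a call lost without WT placebo 1 (adjusted p = 0.114), WT placebo 3 (0.0804) or WT E2 3 (0.131).

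Downstream of the receptor, 17 of 20 listed targets were expressed highly enough to be tested (Ihh, Hand2 and Cyp26a1 were not). With P4 alone, 8 of 17 rose and 1 fell in D542G (9.49% of all genes rose; 5 of the targets without D542G placebo 3), and 4 rose and 1 fell in Y541S (5.14% of all genes rose). In WT 4 rose and 1 fell (0.923% of all genes rose), but none rose when WT placebo 1, WT placebo 3 or WT P4 3 was left out, and 1 when WT placebo 2 was left out. List medians were 0.51 in D542G, 0.52 in Y541S and 0.39 in WT, beside 0.06, -0.02 and 0.01 log2 over all genes tested. Calca, Tnfsf11 and Zbtb16 rose in all 3 genotypes, and the share of all genes that did so is not given here.

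Tnfsf11, which encodes the paracrine factor RANKL, was at 775.7 to 1162 CPM in D542G P4 libraries and at 0.0908 to 0.182 CPM in D542G placebo. In Y541S it went from 0.245 to 3.34 CPM in placebo to 200.3 to 302 CPM under P4. In WT it went from 0.104 to 0.309 CPM in placebo to 2.83 to 39.9 CPM under P4. The groups did not overlap in any genotype, and with control levels this low the size of the fold is imprecise, as the SE shows. The rises were 12.70 ± 1.63 log2 in D542G (adjusted p = 1.14e-05), 7.46 ± 1.28 in Y541S (adjusted p = 0.000314) and 6.12 ± 1.34 in WT (adjusted p = 0.0198). Calca, which encodes calcitonin and is induced by progesterone in mammary epithelium, rose by 8.99 ± 1.11, 6.19 ± 0.99 and 4.32 ± 0.89 log2 in the same order (adjusted p = 8.63e-06, 0.000136 and 0.014). Its P4 libraries held 3647 to 8367 CPM in D542G, 404 to 520.4 CPM in Y541S and 74.6 to 645 CPM in WT. In WT the calls of Tnfsf11 and Calca were lost without WT placebo 1 (adjusted p = 0.134 and 0.103), WT placebo 3 (0.107 and 0.106) or WT P4 3 (0.0618 and 0.0502), and that of Tnfsf11 also without WT placebo 2 (0.0641). Pgr was at 48.8 to 128 CPM in all 10 libraries of P4 alone.

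Fkbp5, a cochaperone gene that progesterone and glucocorticoid receptors both induce, rose under P4 by 3.75 ± 0.52 log2 in D542G (adjusted p = 2.47e-05) and 3.37 ± 0.51 in Y541S (adjusted p = 7.48e-05). In WT it differed by 1.58 ± 0.46 log2 (adjusted p = 0.0839 by edgeR and 0.0126 by DESeq2). Areg, which encodes the growth factor amphiregulin and is also an estrogen target, rose by 2.21 ± 0.46 log2 in WT (adjusted p = 0.0154) and 1.64 ± 0.47 in D542G (adjusted p = 0.0155), and differed by 1.23 ± 0.47 in Y541S (adjusted p = 0.0909). The Areg call was lost in D542G without D542G placebo 1 (adjusted p = 0.0898) and in WT without WT P4 3 or any 1 placebo library (0.0546 to 0.109). Zbtb16, a transcription factor gene, rose by 2.12 ± 0.53, 2.43 ± 0.56 and 2.68 ± 0.57 log2 in WT, D542G and Y541S (adjusted p = 0.0397, 0.00329 and 0.00236), and the WT call was lost when any 1 of the 7 libraries was left out (0.0505 to 0.2).

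When P4 was added to E2, 9 of 17 targets rose and 1 fell in WT (10.2% of all genes rose), 10 rose and 0 fell in D542G (10% rose), and 10 rose and 1 fell in Y541S (4.47% rose). The medians were 1.82, 1.49 and 1.93 log2, against -0.05, 0.01 and 0.00 over all genes tested. Rises in all 3 genotypes were called for 6 targets, Calca, Fkbp5, Hsd11b2, Lrp2, Tsc22d3 and Zbtb16. The share of all genes that rose in all 3 is not given here, so this overlap cannot be set against it. The WT call of Calca was lost without WT E2+P4 1 (1.28 log2, adjusted p = 0.241). In WT cells Pgr itself rose in this comparison, in D542G it fell, and in Y541S it was not called. Tsc22d3, a gene that steroid receptors induce, rose by 2.68 ± 0.44 log2 in WT, 3.37 ± 0.46 in D542G and 3.24 ± 0.45 in Y541S (adjusted p = 7.21e-05, 3.88e-06 and 1.52e-05). Tnfsf11 rose by 11.96 ± 1.64 log2 in D542G (adjusted p = 4.63e-06) and 7.37 ± 1.27 in Y541S (adjusted p = 0.000203), and differed by 2.80 ± 1.02 in WT (adjusted p = 0.0542). Of the WT E2 libraries, WT E2 1 held 23.4 CPM of Tnfsf11 and the others 0.112 and 0.272 CPM. Without WT E2 1 the WT difference was 8.22 log2 (adjusted p = 2.12e-05), and it was also called without WT E2+P4 2 (adjusted p = 0.0439).

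Wnt4, which encodes a secreted factor of hormone-sensing cells, rose in this comparison by 2.66 ± 0.58 log2 in WT (adjusted p = 0.00141) and 3.50 ± 0.60 in D542G (adjusted p = 8.67e-05), and differed by 0.01 ± 0.55 in Y541S (adjusted p = 0.999). Its rises started from low levels under E2. Mean Wnt4 in WT was 399 CPM under placebo, 20.3 with E2, 421 with P4 alone and 129 with E2+P4. In D542G these means were 249, 19.5, 350 and 220 CPM. WT E2+P4 libraries stayed below the WT placebo range for Wnt4, whereas D542G E2+P4 overlapped D542G placebo. Areg rose in WT by 1.82 ± 0.47 log2 (adjusted p = 0.00715) and in Y541S by 1.93 ± 0.48 (adjusted p = 0.00742; 0.0547 and 0.0549 without Y541S E2 1 and 2), and in D542G it was at 238 to 443 CPM with E2 and 269 to 471.5 CPM with E2+P4. Fkbp5 rose by 2.89 ± 0.50, 5.43 ± 0.56 and 2.42 ± 0.49 log2 in WT, D542G and Y541S (adjusted p = 0.000115, 6.78e-08 and 0.00114). Several listed targets, among them Fkbp5, Tsc22d3, Zbtb16, Sgk1 and Per1, also respond to glucocorticoids, so the list does not isolate the progesterone receptor.

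**Figure D5:**
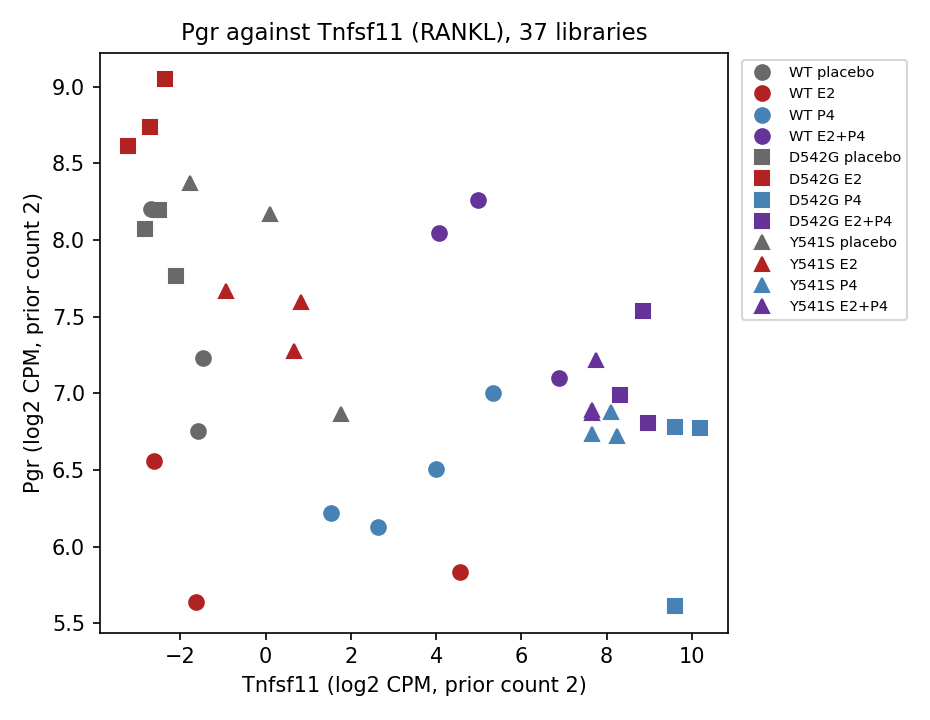
Pgr (vertical axis) against Tnfsf11, which encodes RANKL (horizontal axis), both in log2 CPM with a prior count of 2, for the 37 libraries. Colours mark treatment and symbols genotype. Mutant libraries with P4 or E2+P4 lie at the right, at 200.3 to 1162 CPM of Tnfsf11, and their Pgr runs from 48.8 to 186 CPM.

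Across the 37 libraries, the pattern of Pgr was compared with that of 10329 genes whose log2 CPM averaged 2 or more. The median gene had r = 0.036. The 10 genes most like Pgr were Dhx40 (r = 0.888), Gpr107 (0.879), Psen2 (0.874), Gm16485 (0.871), Cd200 (0.87), Atg13 (0.868), Cep19 (0.851), Srp68 (0.85), Dap (0.849) and Glul (0.836), and the next gene had r = 0.834. By rank correlation 9 of these 10 were again among the 10 highest. The 5 genes with the lowest r were Alkbh1 (-0.845), Trmt10c (-0.842), Dtd1 (-0.836), Ap4s1 (-0.814) and Prkag2 (-0.812), of which 3 were also among the lowest 5 by rank correlation. These correlations describe libraries that share groups, and the genes were chosen for them.

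Gm16485 is the neighbour of Pgr on chromosome 9, starting 3180 bases after its end on the same strand. By rank it was the gene most like Pgr of all 10329 (rho = 0.934). Its level was low, at 19.6 ± 5.05 CPM in D542G E2 and 14.2 ± 0.507 in D542G placebo, the highest mean and among the highest, and at 2.47 ± 2.82 CPM in WT E2, the lowest mean. Gm16485 was at 14.9 ± 5.79 CPM in WT E2+P4 and at 4.07 to 4.43 CPM on average in the 3 groups of P4 alone. The use of strand and of reads beyond a gene's end was not given in the sources used here, so reads that run on from Pgr cannot be told apart from a transcript of its own.

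Glul, which encodes glutamine synthetase, shared the extremes of Pgr in D542G cells, with 1629 ± 87.9 CPM under E2, 859.5 ± 150 under placebo and 154 ± 48.0 under P4. Dhx40, an RNA helicase gene, was at 264 ± 40.1 CPM in D542G E2 and at 60.2 to 122 CPM on average in the other 11 groups. Cd200, a cell surface glycoprotein gene, was at 1433 ± 75.4 CPM in D542G E2 and 403 ± 156.7 CPM in WT E2. Among receptors and targets, Pgrmc2 had r = 0.568, Tnfsf11 -0.486, Calca -0.431, Fkbp5 -0.363, Wnt4 -0.093 and Areg -0.079. After the mean of each group was subtracted, these were 0.229, -0.279, 0.244, -0.504, 0.299 and 0.507 in the same order.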

How the data were processed

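RNA-seq libraries of sorted mature luminal cells were analysed from the raw counts per gene that the authors deposited for each of 37 libraries. The genome build was GRCm38, per the submitters' processing notes, while nothing in the sources used here gives the aligner, the counting program or its strand setting. Total RNA was made into cDNA and then into Nextera XT libraries, per the labels' protocols. Genes were named from a GENCODE M21 annotation.

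All libraries were fitted together with edgeR 4.0.16 (R 4.3.3, limma 3.58.1), with 1 coefficient per group, TMM normalization, a filter on low counts by group, robust quasi-likelihood dispersions and Benjamini-Hochberg adjustment over 18426 genes. Intervals are 95%, and log2 CPM used a prior count of 2. Of 36 comparisons, 34 were listed at the outset and 2 were added after values were seen. DESeq2 1.42.0, RLE normalization, no filter, a replicate block, the first identifier series alone and leaving out each library were alternatives. Named genes were the members of fixed lists with the smallest p-values and genes ranked by likeness to Pgr, beside genes named throughout for their role. The members and lists were chosen with earlier results of these data known. The scripts were tested on simulated data.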

Additional observations from a re-analysis of the deposited data

Results flagged for a closer look

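The response of Pgr to E2 differed between D542G and WT cells, by 2.25 log2 in a test of the difference itself. The gap between the combined response and the sum of the single responses differed between D542G and WT by -2.96 log2. The change on adding P4 to E2 differed from WT by -3.48 log2 in D542G and by -2.34 log2 in Y541S, in tests chosen after the values were seen.

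Among the 4 WT P4 libraries, the only group large enough for a test of single libraries, 31 genes were examined and 4 had a library whose gap to the rest exceeded Dixon's critical value. Chance gives such a library in about 1 of 20 groups. Psen2 stood apart in WT P4 3 at 58.4 CPM and Pgrmc2 in the same library at 24.6 CPM. Pgrmc1 stood apart in WT P4 4 at 386 CPM and Cited1 in that library at 1590 CPM. Pgr itself was not among them.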

How the results depend on the processing

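Of 524 alternative values for Pgr, 475 kept their direction and side of the threshold, 23 lost the call, 12 gained it and 14 changed sign, none of these 14 a called result. The fall under P4 in D542G, the rise in WT and fall in D542G on adding P4 to E2, the D542G level against WT under E2, the E2 response of D542G against WT, the WT departure from the sum and both added comparisons kept their calls in every alternative run. The cause of the changes below was not tested. DESeq2 called WT P4 (-1.04), Y541S E2+P4 (-0.98) and the departure from the sum of Y541S against WT (-2.19), and no filter lost Y541S P4 (-1.16). DESeq2 and RLE normalization turned D542G P4 against WT P4 to 0.014. The first identifier series alone gave -1.28 for Y541S E2+P4, 1.11 for WT E2+P4 against P4, -0.0011 for Y541S P4 against WT P4 and -1.64 for the E2+P4 response of Y541S against WT. Without WT placebo 2 and WT P4 2, the P4 response of Y541S against WT was 0.13.

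Residuals of same-numbered libraries correlated between -0.504 and 0.56, the highest for WT placebo 2 with WT P4 2. Both of these libraries also held the most basal markers of their groups, and the part of those markers was not tested. The medians for numbers 1, 2 and 3 were 0.003, -0.007 and -0.002. Of 37 libraries, 17 had their best partner outside the group under the same number. These values do not settle whether a shared number marks a shared origin or handling. Number 4 occurs only in WT P4 4, and number 5 only in WT P4 5 and Y541S placebo 5, the libraries of the later identifier series. A replicate block therefore also sets that series apart, and its effect cannot be told apart from that of shared numbers. With the replicate block, WT E2+P4 against P4 (0.95, adjusted p = 0.0738) and the departure from the sum of D542G against WT (-2.50, adjusted p = 0.0743) lost their calls. Y541S E2+P4 (-1.18, adjusted p = 0.0212) and the E2+P4 response of Y541S against WT (-1.57, adjusted p = 0.0494) gained one. Y541S P4 against WT P4 changed sign (-0.15), and 79 genes were called in WT P4. The block changed no other call of Pgr. Among the other genes, Tnfsf11 in WT E2+P4 against E2 gained a call, and Zbtb16 in WT P4 and Esr1 in D542G E2 lost theirs.

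Leaving out 1 library gave -1.79 to -0.95 for WT E2, -1.50 to -0.88 for Y541S P4, -1.27 to -0.66 for Y541S E2+P4, 1.28 to 1.79 for Y541S E2 against WT E2, -0.20 to 0.27 for D542G P4 against WT P4 and -1.15 to -0.65 for Y541S E2+P4 against WT. It gave -0.66 to 0.14 for the P4 response and -1.81 to -1.02 for the E2+P4 response of Y541S against WT. The departure from the sum ran from -0.42 to 0.055 in D542G, from -3.28 to -2.44 in D542G against WT and from -2.52 to -1.68 in Y541S against WT.

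Genes called in WT P4 numbered 263, against 746 by DESeq2, 160 without the filter, 142 without WT placebo 2 and WT P4 2, and 22 to 384 with 1 library left out. In Y541S E2 they numbered 857, against 1439 by DESeq2, 1743 in the first identifier series and 299 to 1786 with 1 library left out. With 1 library left out, counts were 1817 to 2440 for D542G E2 (2893), 1723 to 3295 for D542G P4 (3385), 1167 to 2191 for Y541S P4 (2077), 2202 to 3657 for Y541S E2+P4 (3417), 2028 to 3715 for WT E2+P4 against E2 (3406) and 1196 to 1441 for Y541S E2+P4 against E2 (1918). Progesterone receptor targets called higher numbered 0 to 3 in WT P4 (0 without WT placebo 2 and WT P4 2) and 5 to 8 in D542G P4. For Areg in D542G E2+P4 against E2, DESeq2 and RLE gave 0.016, no filter and the first identifier series 0.0081, and leaving out 1 library -0.27 to 0.19. Wnt4 in Y541S E2+P4 against E2 gave -0.0027 without the filter and -0.26 to 0.48 with 1 library left out. Greb1 in Y541S E2 gave 0.18 in the first identifier series and -0.53 to 0.19 with 1 library left out. Every library held at least 1646 Pgr counts.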
